A study of Mus musculus with 10 samples.

Results

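Retinoic acid is made from vitamin A (retinol) inside the testis and acts as a signal that moves germ cells from spermatogonia toward meiosis. Retinol enters cells, is oxidized first to retinal and then to retinoic acid, is carried in the cytoplasm by binding proteins, binds nuclear receptors that pair with retinoid X receptors on DNA, and is removed by cytochrome P450 enzymes. In the seminiferous tubule, Sertoli cells and germ cells divide these steps between them, and Stra8, a gene that germ cells need to start meiosis, is a well-known target. The 9 genes described here cover the main steps: the receptors Rara, Rarb and Rarg, the synthesis enzymes Aldh1a1 and Aldh1a2, the breakdown enzymes Cyp26a1 and Cyp26b1, the cytoplasmic binding protein Crabp1 and the retinol uptake receptor Stra6. They were picked by name, and all 9 were found among the 28125 genes of the RNA matrix and among the 30657 nuclear genes of the chromatin matrix.

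Nuclei of single testis cells were profiled for both RNA and open chromatin on the BD Rhapsody system, so RNA levels are those of nuclei. Wild-type (WT) mice were taken at 11, 17 and 25 days postpartum (dpp), and Cre/+ and Nfya-CKO mice at 8 weeks, with 1 library per condition and assay. Nfya encodes a subunit of NF-Y, a factor that binds CCAAT boxes. Nfya-CKO mice carry floxed Nfya alleles, part of which is deleted in male germ cells by a Cre recombinase expressed from the Stra8 locus (Stra8-Cre), and Cre/+ mice carry Stra8-Cre as well. The authors named 13 cell populations. Spermatogonia were split into undifferentiated (Undiff. SpG) and differentiating (Diff. SpG) ones. Spermatocytes ran from preleptotene (pL) through groups spanning early leptotene to zygotene (eL/L/Z) and leptotene to early pachytene (L/Z/eP) to mid or late pachytene (mP/lP) and then diplotene (D). Spermatids were round (RS) or elongating (ES), and the remainder were Sertoli cells, other somatic cells, the spermatogonia labelled Nfya-CKO and 99 unknown cells. RNA levels are given as unique molecular identifiers (UMIs) per 10000, averaged over the cells of a population, and chromatin levels as scATAC-seq signal per 1000000 over nuclear genes. Each population is 1 pooled value per gene, so there is no spread between replicates, no test was possible, and the order of close values cannot be judged against error. A pooled level also cannot tell a change in every cell from a change in the share of cells that hold the RNA, and levels are compared between populations for 1 gene at a time, since gene length was not corrected.

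The 5 scRNA-seq libraries held 3746 to 18039 cells and 30227701 to 64967271 UMIs each, and the 5 scATAC-seq libraries held 14920 to 97798 cells. Populations were not spread evenly over libraries: 92% of Undiff. SpG, 99.7% of pL and 99.9% of Sertoli cells came from WT juveniles, 84.5% of Diff. SpG and 99.6% of ES came from Cre/+, and 78.8% of other somatic cells and all 491 labelled Nfya-CKO spermatogonia came from the Nfya-CKO library. Genotype, age and library therefore cannot be told apart in the comparisons below, except that pL and Undiff. SpG were both mostly WT juvenile. Cell barcodes were also shared between scRNA-seq libraries. The Cre/+ and Nfya-CKO libraries had 3813 barcodes in common, or 74.0% of the smaller library, and pairs of WT libraries shared 621 to 853, whereas a WT and an 8-week library shared at most 19. Of the 491 spermatogonia labelled Nfya-CKO, 175 had a barcode that also occurred in another library, and 143 of these barcodes were named Diff. SpG in Cre/+, with a median of 2378 UMIs there against 21876 in the Nfya-CKO library. Of the 4633 other somatic cells of the Nfya-CKO library, 3628 shared a barcode with a Cre/+ cell, which was named a germ cell in 3305 cases. Control populations held such cells too. A barcode that also occurred in another library was found in 32.5% of Undiff. SpG, 49.1% of Diff. SpG, 19.0% of pL and 59.7% of ES cells. Over all populations this share ran from 3.30% (L/Z/eP) to 70.1% (other somatic cells). The matrices are averages over whole populations, so no value could be computed without these cells. In scATAC-seq any pair of libraries shared at most 159 barcodes.

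Nfya RNA itself stood at 1.11 UMIs per 10000 in spermatogonia labelled Nfya-CKO and at a lower 0.456 in Undiff. SpG. It was 0.360 to 0.822 in the remaining populations. RNA from outside the deleted part would still be counted, so this level does not check the deletion. The paper reports loss of NFYA protein from germ cells by Western blotting and immunohistochemistry. The 4 markers of undifferentiated spermatogonia (Zbtb16, Gfra1, Id4 and Uchl1) summed to 16.4 in Undiff. SpG and 16.7 in spermatogonia labelled Nfya-CKO. Their sum was 6.57 in Diff. SpG. The near-equal sums hide single markers that went opposite ways. In spermatogonia labelled Nfya-CKO against Undiff. SpG, Zbtb16 (4.15 against 8.74) and Id4 (0.290 against 0.682) were lower. Uchl1 (11.0 against 5.88) and Gfra1 (1.20 against 1.08) were higher, and Uchl1 was also 4.87 in other somatic cells. Markers of differentiating spermatogonia (Kit, Dmrtb1 and Sohlh1) summed to 2.43 in Undiff. SpG, 3.42 in Diff. SpG and 3.16 in spermatogonia labelled Nfya-CKO. Single ones again differed: in the latter, Dmrtb1 (0.173) and Sohlh1 (1.90) were nearer to Undiff. SpG (0.133 and 1.75) than to Diff. SpG (1.04 and 0.818). Spermatid markers summed to 6.62 in Diff. SpG and to 0.404 in Undiff. SpG, so the RNA of Diff. SpG includes transcripts that mark later stages. The 6 Sertoli markers (Sox9, Wt1, Amhr2, Rhox5, Fshr and Gata4) summed to 34.3 in Sertoli cells and still to 20.6 in other somatic cells. The 5 Leydig markers (Cyp17a1, Cyp11a1, Hsd3b1, Star and Insl3) summed to 218 in other somatic cells and to 0.371 in Sertoli cells, so Leydig RNA leads the other somatic population. Unknown cells rest on few cells, and 1 UMI in a cell of median depth there was worth 0.0213 UMIs per 10000, against 0.000281 to 0.00327 elsewhere.

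Promoters of all 9 members, 17 in total, were taken from RefSeq (GRCm38.p6) as 250 bases before to 50 after each start and searched on both strands for the retinoic acid receptor half-sites AGGTCA (the consensus), and for its relatives AGTTCA as well as GGGTCA and also GGTTCA. A direct repeat of half-sites with 5 bases between them, the classic layout of a retinoic acid response element, was present in 2 of the 17, those of Rarb and Cyp26a1. Among all 32851 promoters of this length it was present in 32, or 0.0974%. Single half-sites, which lie inside these repeats too, were present in 7 of the 17 and in 43.7% of all promoters. Both promoters with the repeat are shown with every half-site in capitals, because these are the 2 genes of the group whose promoters carry this layout.
Rarb promoter, chr14:16575427-16575726, minus strand: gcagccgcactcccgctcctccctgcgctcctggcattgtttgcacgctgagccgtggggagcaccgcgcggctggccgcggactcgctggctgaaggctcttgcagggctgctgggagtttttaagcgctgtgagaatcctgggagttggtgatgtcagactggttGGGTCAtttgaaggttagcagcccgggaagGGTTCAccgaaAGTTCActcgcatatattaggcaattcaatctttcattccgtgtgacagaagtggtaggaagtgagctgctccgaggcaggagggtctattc
Cyp26a1 promoter, chr19:37697558-37697857, plus strand: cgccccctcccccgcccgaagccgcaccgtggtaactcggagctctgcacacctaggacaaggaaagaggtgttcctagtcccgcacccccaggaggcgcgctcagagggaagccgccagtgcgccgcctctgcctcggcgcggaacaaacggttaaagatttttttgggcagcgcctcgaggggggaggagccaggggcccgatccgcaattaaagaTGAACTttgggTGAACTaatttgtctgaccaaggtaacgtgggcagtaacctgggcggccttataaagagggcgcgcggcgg
In Rarb the repeat reads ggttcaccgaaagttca and lies at bases -53 to -37 from the start. In Cyp26a1 it reads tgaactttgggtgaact, that is on the opposite strand, at -32 to -16. Repeats with 1 or 2 bases between half-sites were in none of the 17 promoters and in 0.222% and 0.268% of all promoters. The letters CCAAT, the core of the NF-Y motif, were searched on both strands as well and were present in 5 of the 17 promoters (Rara, Aldh1a1, Aldh1a2 and Stra6) against 37.4% of all promoters. The Rara windows with CCAAT overlap and hold the same site, so it is counted more than once. The 2 members whose RNA differed most between spermatogonia labelled Nfya-CKO and Undiff. SpG, Aldh1a1 and Crabp1, are shown with CCAAT in capitals.
Aldh1a1 promoter at its downstream start, chr19:20601718-20602017, plus strand: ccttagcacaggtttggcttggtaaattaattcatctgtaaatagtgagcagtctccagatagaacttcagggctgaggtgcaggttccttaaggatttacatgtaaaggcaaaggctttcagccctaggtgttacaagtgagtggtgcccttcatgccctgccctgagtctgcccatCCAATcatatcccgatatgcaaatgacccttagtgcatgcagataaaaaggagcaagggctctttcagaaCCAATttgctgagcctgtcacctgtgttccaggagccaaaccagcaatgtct
Crabp1 promoter, chr9:54764498-54764797, plus strand: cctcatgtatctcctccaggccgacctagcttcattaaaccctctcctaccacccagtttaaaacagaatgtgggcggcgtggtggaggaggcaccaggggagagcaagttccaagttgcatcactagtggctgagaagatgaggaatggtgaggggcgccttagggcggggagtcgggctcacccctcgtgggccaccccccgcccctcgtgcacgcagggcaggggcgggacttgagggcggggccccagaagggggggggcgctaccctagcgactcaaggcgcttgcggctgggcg
This Aldh1a1 window held CCAAT at -72 to -68 and at -2 to 3, the other Aldh1a1 promoter held none, and the Crabp1 window held neither CCAAT nor a half-site. A match is a description of letters only, and a window without one says nothing about binding.

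**Figure D1:**
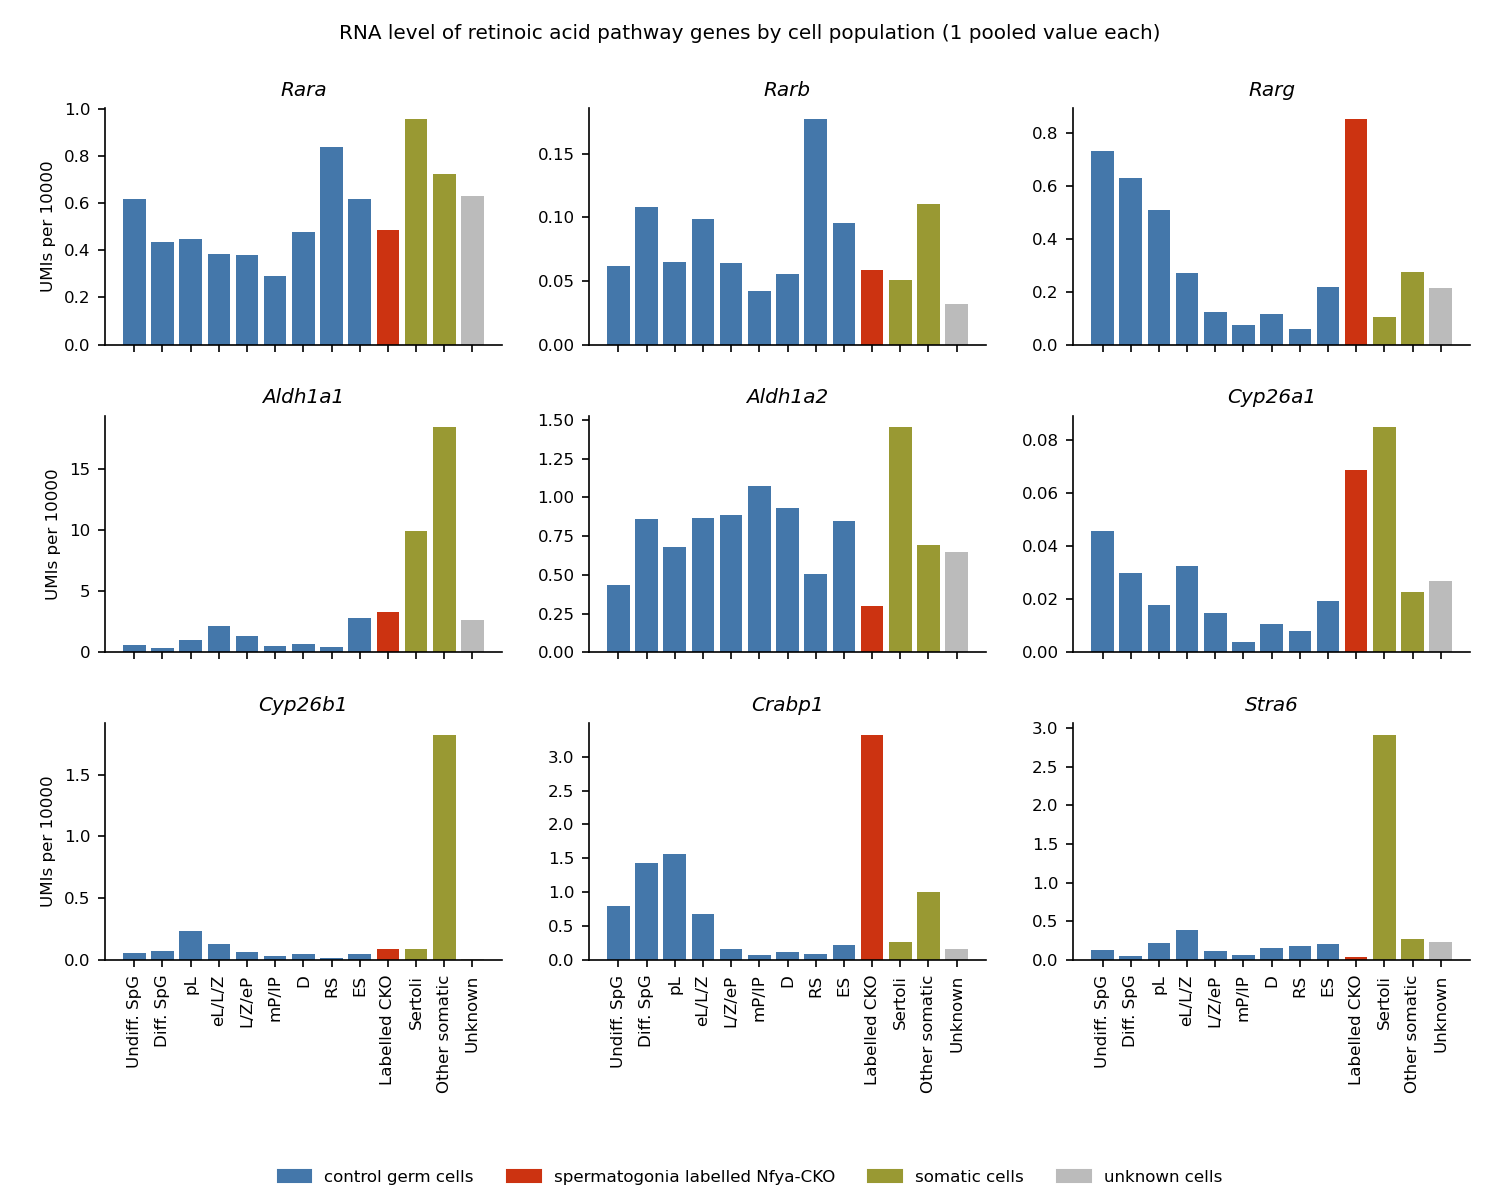
RNA level (UMIs per 10000, 1 pooled value per bar) of the 9 genes in the 13 populations, with each gene on its own axis starting at 0. Aldh1a1, Cyp26b1 and Stra6 stand highest in somatic cells, Rarg and Crabp1 in spermatogonia, and Aldh1a2 is spread over meiotic and somatic populations.

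The members did not share 1 profile. By RNA, 6 of 9 were highest in a somatic population (Rara, Aldh1a2, Cyp26a1 and Stra6 in Sertoli cells, Aldh1a1 and Cyp26b1 in other somatic cells), Rarg and Crabp1 were highest in spermatogonia labelled Nfya-CKO, and Rarb was highest in RS. Of all 28125 genes, 13.7% were highest in Sertoli or other somatic cells, and of the 15250 genes over the limit given below 17.3% were, against 5 of the 8 members over it. The span from the lowest to the highest population was 3.30-fold for Rara and 4.91-fold for Aldh1a2, but 53.5-fold for Aldh1a1, 73.9-fold for Stra6 and, with unknown cells left out, 92.4-fold for Cyp26b1. All but Cyp26a1 had a mean of at least 0.05 UMIs per 10000 over the 13 populations, the limit used for comparing populations.

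The receptors differed in the germ cell stages that held them. Rarg (chr15:102234938-102257517, minus strand), the receptor known for its part in spermatogonial differentiation, had an RNA level of 0.730 in Undiff. SpG, 0.628 in Diff. SpG, 0.508 in pL, 0.271 in eL/L/Z, 0.122 in L/Z/eP, whereas mP/lP had 0.0730. It remained low in D (0.114), RS (0.0609), ES (0.219) and Sertoli cells (0.105), and was 0.273 in other somatic cells. Up to mP/lP each stage thus had less Rarg RNA than the one before, and the level in RS was 12-fold below that in Undiff. SpG. Spermatogonia labelled Nfya-CKO had the highest Rarg level, 0.850, which was 1.16-fold that of Undiff. SpG.

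Rara (chr11:98927818-98974942, plus strand), the receptor of Sertoli cells and of later germ cells, took a shallow U shape in germ cells. Its RNA level was 0.617 in Undiff. SpG, 0.435 in Diff. SpG, 0.448 in pL, 0.384 in eL/L/Z, 0.381 in L/Z/eP. It reached its lowest value, 0.290, at mP/lP, and then was 0.476 in D, 0.837 in RS and 0.618 in ES. Sertoli cells had 0.956, other somatic cells 0.722 and spermatogonia labelled Nfya-CKO 0.485. The ratio of Rarg to Rara RNA, in which the length of either gene cancels when populations are compared, was 1.18 in Undiff. SpG, 1.44 in Diff. SpG and 1.14 in pL, then 0.707 in eL/L/Z, 0.320 in L/Z/eP, 0.252 in mP/lP, 0.240 in D, 0.0727 in RS and 0.354 in ES. The ratio was highest, 1.75, in spermatogonia labelled Nfya-CKO and was 0.110 in Sertoli cells. The genes most like Rarg were pi-Map3k9.1 and Wdr55 (r = 0.96 for both), and those most like Rara were Mccc2 (r = 0.94) and Fggy (r = 0.92), by the measure of likeness (Pearson r of log2 levels over the 13 populations, given as a description).

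Rarb (chr14:16430839-16819156, minus strand), itself a textbook target of retinoic acid, was low everywhere. Its RNA level ranged from 0.0420 in mP/lP to 0.177 in RS, leaving unknown cells aside, with 0.0621 in Undiff. SpG, 0.109 in Diff. SpG, 0.0649 in pL, 0.0507 in Sertoli cells, 0.111 in other somatic cells and 0.0587 in spermatogonia labelled Nfya-CKO. Rarb overlaps Top2b on the opposite strand by 4624 bases, and the sources used here do not say whether reads were counted by strand, so these low levels are uncertain.

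Aldh1a1 (chr19:20492715-20643465, plus strand), a retinal dehydrogenase known in Sertoli and Leydig cells, had an RNA level of 18.5 in other somatic cells and 9.91 in Sertoli cells. In control germ cells it was 0.607 in Undiff. SpG, 0.345 in Diff. SpG, 1.05 in pL, 2.17 in eL/L/Z, 1.31 in L/Z/eP, 0.537 in mP/lP, 0.695 in D, 0.437 in RS and 2.80 in ES. Every control germ cell population was thus below both somatic populations. The Aldh1a1 locus overlaps C730002L08Rik on the opposite strand over 59616 bases. The genes whose profile was most like that of Aldh1a1 over the 13 populations, out of 10858 genes compared on log2 levels, were Gstm2 (Pearson r = 0.98) and Gstm1 (r = 0.98), glutathione S-transferases that were highest in other somatic cells as well.

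Sertoli markers moved with Aldh1a1 across control germ cells. As a percentage of the level in Sertoli cells, Aldh1a1 stood at 6.12 in Undiff. SpG, 3.49 in Diff. SpG, 10.6 in pL, 21.9 in eL/L/Z, 13.2 in L/Z/eP, 5.42 in mP/lP, 7.02 in D, 4.41 in RS and 28.2 in ES. The summed Sertoli markers stood at 5.60, 4.65, 7.56, 16.9, 10.9, 4.03, 6.68, 5.0 and 34.2 in the same order. Single markers in ES were spread widely, from 13.6% (Fshr) and 17.8% (Sox9) to 86.9% (Rhox5) and 107% (Amhr2). Over these 9 populations, which share libraries and cells, Spearman's rho between Aldh1a1 and the summed Sertoli markers was 0.95, and for Stra6 it was 0.70, for Crabp1 0.27 and for Rarg 0.17. With peritubular markers rho was 0.68 for Aldh1a1 and 0.70 for Stra6, and with Leydig markers 0 and -0.08. What RNA of these cells contributes to the germ cell levels was not tested.

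**Figure D2:**
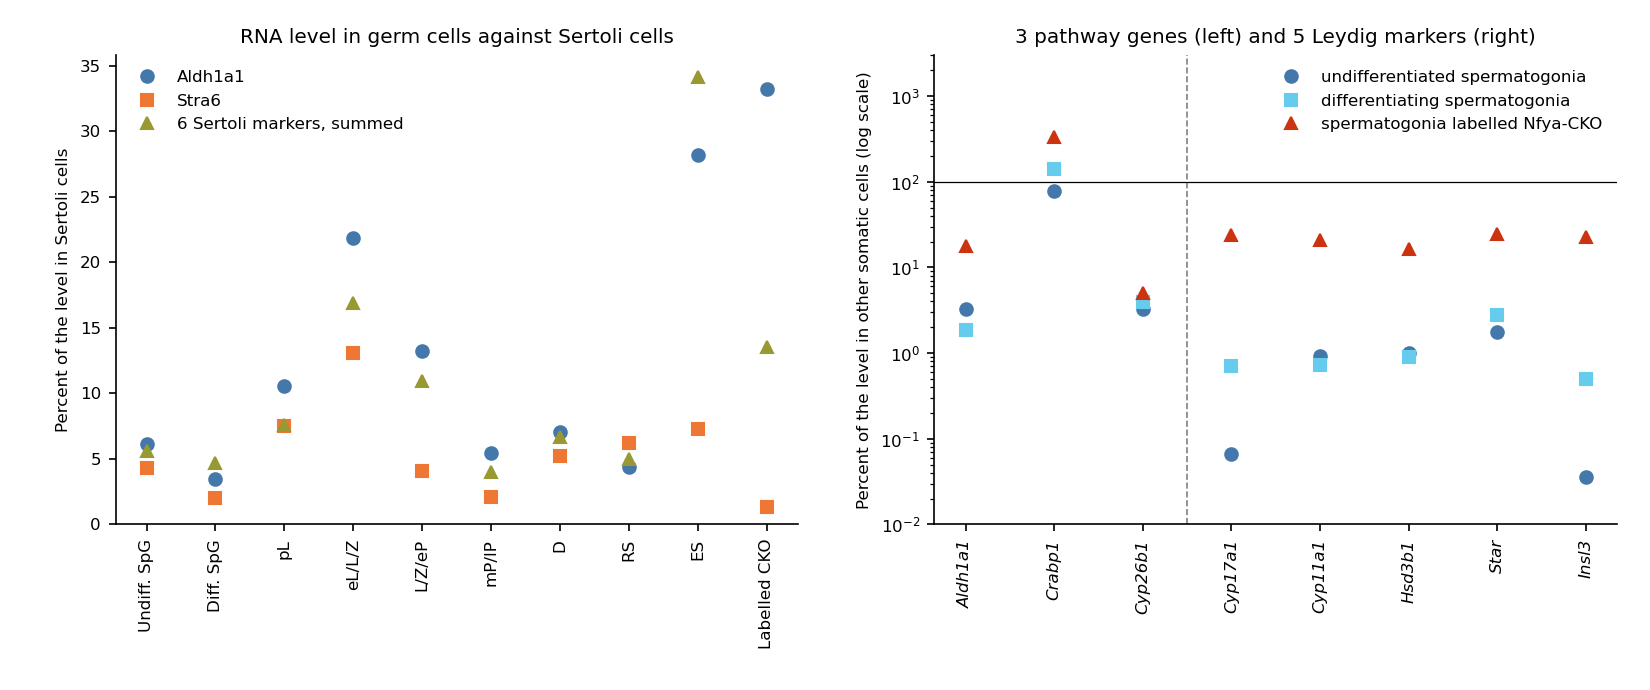
Left, RNA level of Aldh1a1, Stra6 and 6 summed Sertoli markers in 10 germ cell populations as a percentage of the level in Sertoli cells. Right, on a log scale, Aldh1a1, Crabp1, Cyp26b1 and 5 Leydig markers in 3 spermatogonial populations as a percentage of the level in other somatic cells; in spermatogonia labelled Nfya-CKO, Aldh1a1 (17.8%) lies near the Leydig markers (16.3% to 24.6%), and Crabp1 (330%) lies above the somatic level.

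Aldh1a2 (chr9:71215789-71296243, plus strand), the retinal dehydrogenase known in meiotic germ cells, was the most even of the synthesis and breakdown genes. Its RNA level was 0.433 in Undiff. SpG, 0.857 in Diff. SpG, 0.677 in pL, 0.867 in eL/L/Z, 0.889 in L/Z/eP, 1.07 in mP/lP, 0.929 in D, 0.504 in RS and 0.850 in ES. Among control germ cells it was highest in mP/lP, 2.48-fold above Undiff. SpG. Sertoli cells had 1.45, other somatic cells 0.692, and spermatogonia labelled Nfya-CKO had the lowest level of all populations, 0.296. The genes most like Aldh1a2 were Cnep1r1 and Eloa (r = 0.91 for both).

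The breakdown enzymes differed in where they were found. Cyp26b1 (chr6:84571414-84593908, minus strand), known as the enzyme that clears retinoic acid in the somatic cells of the testis, had an RNA level of 1.82 in other somatic cells and of 0.0897 in Sertoli cells. In germ cells it was 0.0604 in Undiff. SpG, 0.0713 in Diff. SpG, 0.232 in pL and 0.132 in eL/L/Z, and between 0.0197 (RS) and 0.0645 (L/Z/eP) in later stages. The pL level was 2.59-fold that of Sertoli cells and 12.7% of that of other somatic cells, and in the same cells Leydig markers summed to 0.0994%, peritubular markers to 2.89%, endothelial markers to 6.66% and macrophage markers to 16.8% of their level in other somatic cells. The part of somatic RNA in the pL level was not tested. Over the 13 populations the genes most like Cyp26b1 were Mfap4 (r = 0.96) and Col6a2 (r = 0.95), which encode proteins of the extracellular matrix.

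Cyp26a1 (chr19:37697798-37701536, plus strand), the breakdown enzyme that retinoic acid is known to induce, was near the limit of these data. Its RNA level was highest in Sertoli cells (0.0848) and spermatogonia labelled Nfya-CKO (0.0686), was 0.0456 in Undiff. SpG, and went down to 0.00399 in mP/lP, the last being worth about 14.0 UMIs of a cell of median depth over 5055 cells. The order of control germ cells ran from Undiff. SpG over eL/L/Z (0.0323), Diff. SpG (0.0300), ES (0.0195), pL (0.0178) and L/Z/eP (0.0149) to D (0.0105) and RS (0.0082), with mP/lP last. The ES value was worth about 6.0 such UMIs, so neighbours in this order are not resolved.

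Crabp1 (chr9:54764748-54773110, plus strand), which binds retinoic acid in the cytoplasm, marked the stages before and at meiotic entry. Its RNA level was 0.794 in Undiff. SpG, 1.43 in Diff. SpG, 1.57 in pL and 0.675 in eL/L/Z. From L/Z/eP (0.157) on it was low, with 0.0728 in mP/lP, 0.123 in D, 0.0863 in RS and 0.216 in ES. The pL level was 21.5-fold that of mP/lP. Sertoli cells had 0.270, other somatic cells 1.01, and spermatogonia labelled Nfya-CKO 3.33, which was 2.12-fold the next highest population. Among the 7 members whose highest level was at least 0.5 (all but Rarb and Cyp26a1), Crabp1 and Rarg were the pair most alike (r = 0.91 over 13 populations), and outside the group Dhps (r = 0.98) and Gm27021 (r = 0.98) were closest to Crabp1.

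Stra6 (chr9:58063788-58153996, plus strand), the membrane receptor through which cells take up retinol, was led by Sertoli cells with an RNA level of 2.91. Control germ cells ranged from 0.0578 in Diff. SpG to 0.382 in eL/L/Z, with 0.126 in Undiff. SpG and 0.218 in pL, other somatic cells had 0.266, and spermatogonia labelled Nfya-CKO had the lowest level, 0.0395. The Sertoli level was 7.63-fold that of the next population, eL/L/Z, in which the summed Sertoli markers were at 16.9% and Stra6 at 13.1% of their Sertoli levels. Gata6 (r = 0.95) and E130114P18Rik (r = 0.95) had the profiles most like that of Stra6. The Stra6 locus overlaps Ccdc33 on the opposite strand over 55036 bases.

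**Figure D3:**
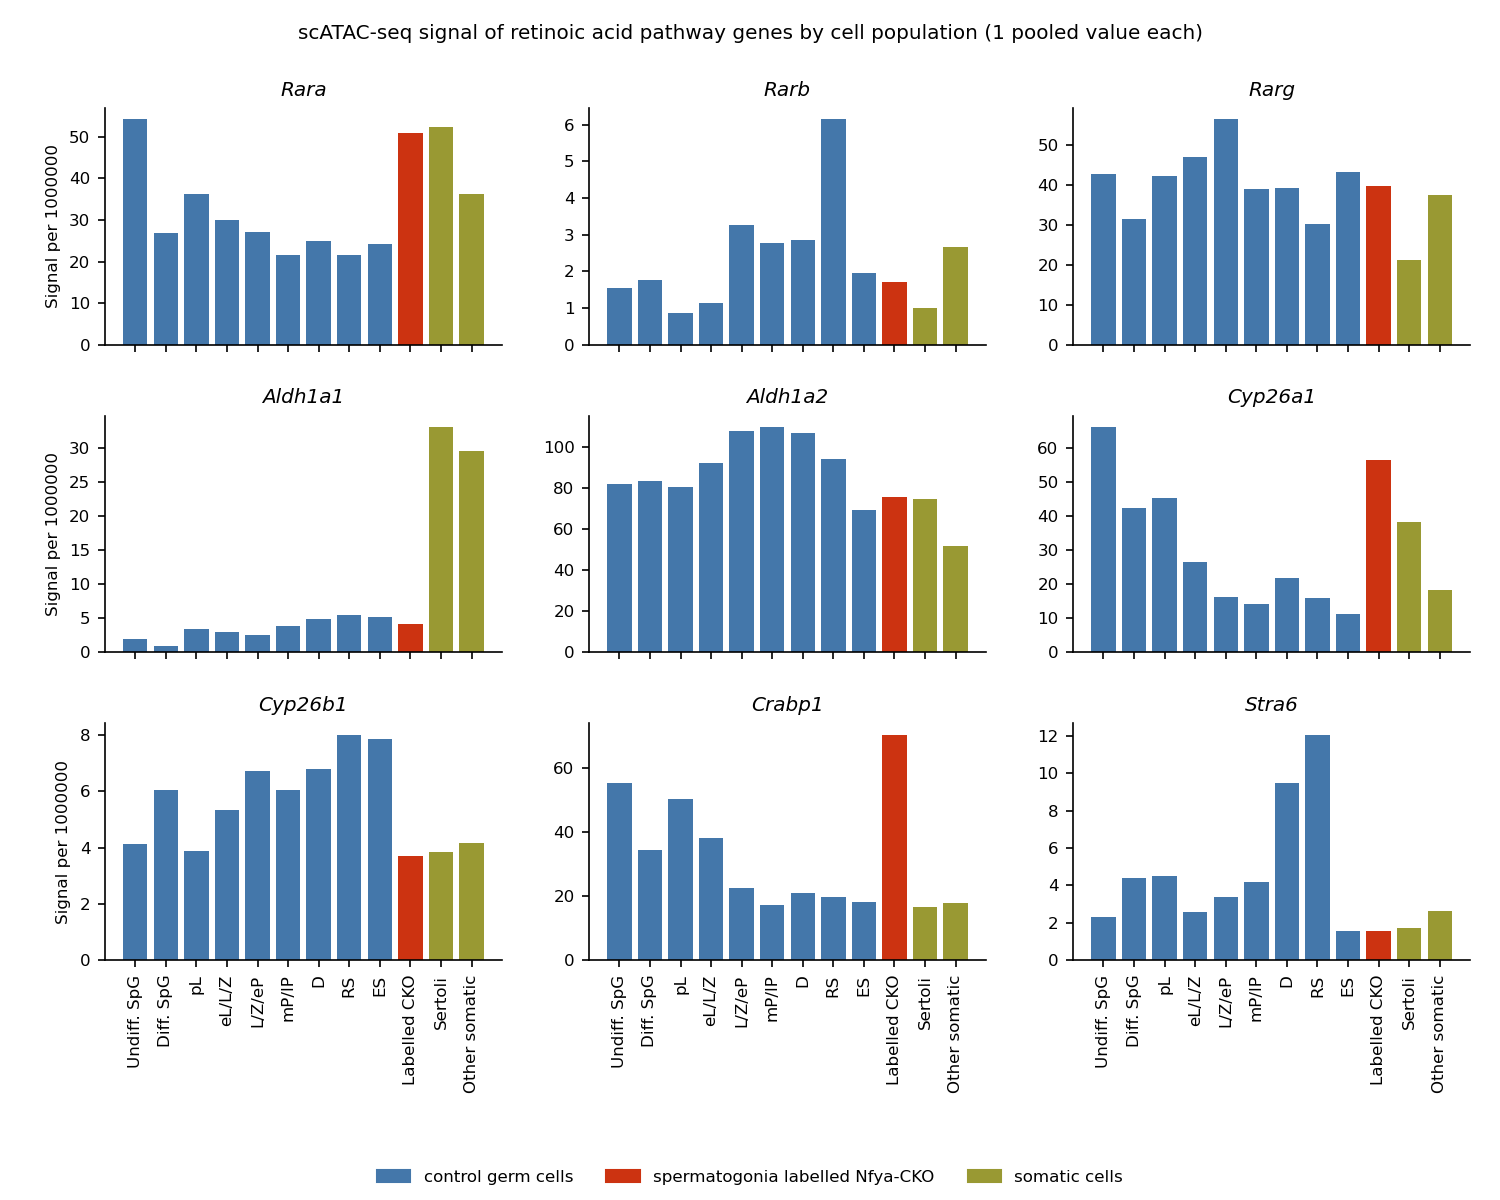
scATAC-seq signal (per 1000000 over nuclear genes, 1 pooled value per bar) of the 9 genes in 12 populations, without unknown cells, each gene on its own axis starting at 0. Aldh1a1 signal is highest in both somatic populations (33.0 and 29.6), and Cyp26a1 and Crabp1 signal is highest in spermatogonia.

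Chromatin and RNA ran alike for some members and not for others. Aldh1a1 signal was 33.0 in Sertoli cells and 29.6 in other somatic cells, against 0.931 (Diff. SpG) to 5.51 (RS) in control germ cells, so both readouts set somatic cells apart. In ES, where Aldh1a1 RNA was at 28.2% of its Sertoli level, its signal was 5.13, and in eL/L/Z, with RNA at 21.9%, it was 2.96. Only 124 scATAC-seq cells carried the ES name from scRNA-seq, and 470 that of spermatogonia labelled Nfya-CKO. The other named populations had 760 (Diff. SpG) to 5805 (L/Z/eP) such cells, so low signals, those of ES above all, are less certain. Crabp1 signal was 55.4 in Undiff. SpG, 34.4 in Diff. SpG, 50.2 in pL and 38.1 in eL/L/Z and between 17.0 (mP/lP) and 22.4 (L/Z/eP) in later germ cells, with 16.6 in Sertoli cells and 17.9 in other somatic cells. Cyp26a1 signal was highest in Undiff. SpG (66.3), followed by spermatogonia labelled Nfya-CKO (56.7), pL (45.3), Diff. SpG (42.4) and Sertoli cells (38.3), and was 11.3 in ES.

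For the receptors, Rara signal was 54.2 in Undiff. SpG, 26.8 in Diff. SpG, 36.2 in pL, 21.5 in mP/lP, 21.6 in RS and 52.5 in Sertoli cells. RS had the highest Rara RNA of control germ cells and not the highest Rara signal, which was in Undiff. SpG. Rarg signal ran from 21.3 in Sertoli cells to 56.5 in L/Z/eP, a population in which Rarg RNA was 0.122, but on the scale with mitochondrial genes it was highest in pL (29.0) and was 20.5 in L/Z/eP. Rarb signal was at most 6.15, in RS, the population with the highest Rarb RNA too.

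Aldh1a2 signal ran from 51.7 in other somatic cells to 110 in mP/lP, the control germ cell population with the highest Aldh1a2 RNA. On a scale that includes mitochondrial genes, however, Aldh1a2 signal was highest in RS (56.2) and was 43.4 in mP/lP. Cyp26b1 signal was between 3.71 and 8.02 in the 12 named populations, and was 4.15 in other somatic cells, where its RNA was 7.85-fold that of the next highest population. Stra6 signal was 1.71 in Sertoli cells, where its RNA was highest, and 12.1 in RS. Spearman's rho between RNA and scATAC-seq level over the 13 populations was highest for Cyp26a1 (0.72), Aldh1a1 (0.61) and Crabp1 (0.59), and lowest for Cyp26b1 (-0.79) and Stra6 (-0.23). It was positive for 7 of 9 members, with a median of 0.37, close to 76.1% and 0.34 over 15210 genes. Over the 9 control germ cell populations alone, rho was 0.82 for Crabp1, 0.72 for Aldh1a2, 0.63 for Cyp26a1 and -0.78 for Cyp26b1, but 0.17 for Aldh1a1 and -0.03 for both Rara and Rarb. With mitochondrial genes kept in the scale, rho was -0.10 for Aldh1a2 and 0.55 for Rarg. The study's methods define promoter accessibility as coverage around the transcription start site of pseudo-bulk tracks, and the sources used here do not say whether the matrix counts the same stretch.

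**Figure D4:**
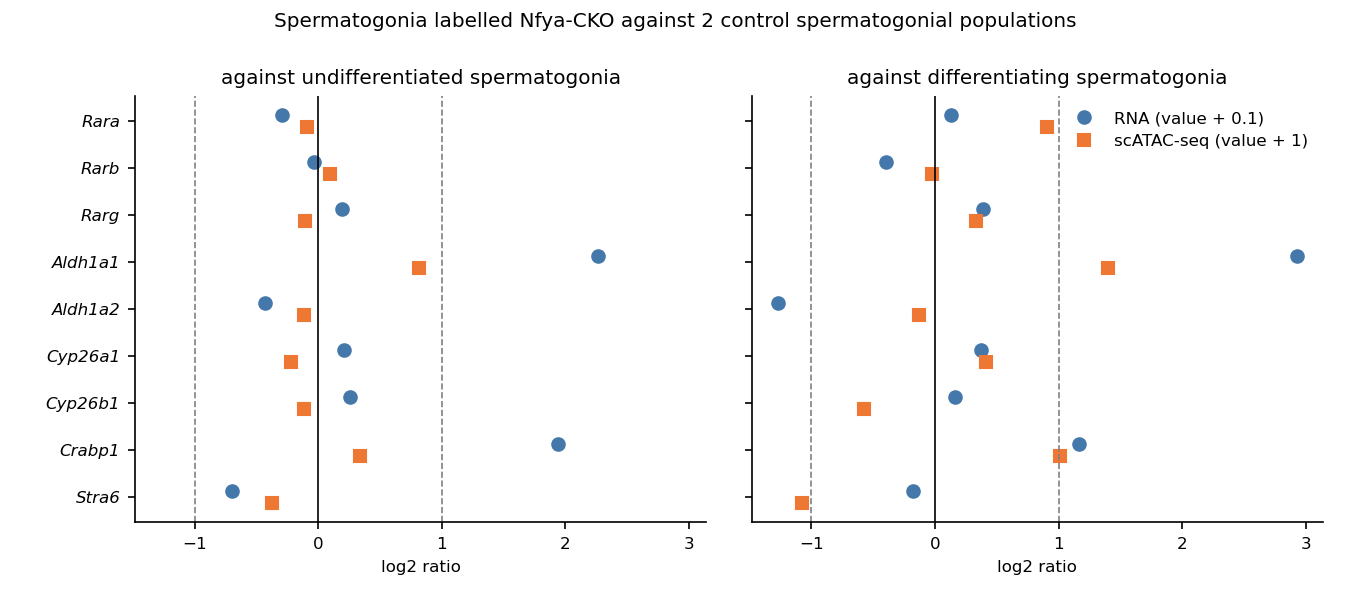
log2 ratio of each member in spermatogonia labelled Nfya-CKO against Undiff. SpG (left) and Diff. SpG (right), for RNA (value + 0.1) and scATAC-seq (value + 1), with dashed lines at a 2-fold difference. Aldh1a1 and Crabp1 RNA lie beyond the line in both panels, and both panels share the Nfya-CKO values.

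Spermatogonia labelled Nfya-CKO were set against the 2 control spermatogonial populations. Neither is a matched control for the deletion. Undiff. SpG held 102 Cre/+ cells among 1292, and Diff. SpG are a different stage. Against Undiff. SpG, which are mostly juvenile, Aldh1a1 RNA was 3.29 against 0.607 and Crabp1 RNA 3.33 against 0.794, log2 ratios of 2.26 and 1.94 on the scale of value + 0.1. The other members were within 2-fold on this scale: Stra6 at -0.69, Aldh1a2 at -0.43, Rara at -0.29, Rarb at -0.03, Rarg at 0.20, Cyp26a1 at 0.21 and Cyp26b1 at 0.25. Of 15250 genes compared, 7.17% were at least 2-fold apart, with 4.09% of all genes higher and 3.08% lower in the Nfya-CKO population. Among the 8 members compared, 2 were apart, both higher. Stra6, at 0.0395 against 0.126, was 3.18-fold lower without the added 0.1, and with 0.01 added its log2 ratio was -1.46 and 3 members were apart. The Aldh1a1 ratio exceeded that of 99.6% of the genes compared.

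Leydig markers moved with Aldh1a1 in this comparison. They summed to 49.3 in spermatogonia labelled Nfya-CKO, most of it Insl3 (39.8), and to 0.208 in Undiff. SpG and 1.27 in Diff. SpG. Relative to other somatic cells the 5 markers stood at 16.3% to 24.6%, and Aldh1a1 stood at 17.8%. In Undiff. SpG the markers stood at 0.0361% to 1.74% and Aldh1a1 at 3.29%. The part of Leydig RNA in the Aldh1a1 level was not tested. The Crabp1 level in spermatogonia labelled Nfya-CKO was 330% of that in other somatic cells and 1231% of that in Sertoli cells. Cyp26b1, also led by other somatic cells, stood at 5.0% of the level there, and peritubular markers summed to 3.70%. Sertoli markers summed to 13.5% of their Sertoli level, none of the 6 being at 0, and Stra6 stood at 1.35%. Single Sertoli markers ranged from 3.69% (Fshr) to 43.9% (Amhr2). Amhr2 was higher in other somatic cells (10.1) than in Sertoli cells (5.03). The 3 macrophage markers summed to 0.254 against 0.0669 in Undiff. SpG, and the 3 endothelial markers to 1.20 against 0.287. These sums were 68.3% and 96.8% of the levels in other somatic cells, and Pecam1 (230%), Adgre1 (184%) and Tek (105%) were above the level there. Endothelial markers were highest in unknown cells, where they summed to 15.3 and Crabp1 was 0.166. The part of these cell types in the member levels was not tested.

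Against Diff. SpG, which are mostly adult Cre/+ cells, Aldh1a1 RNA was 3.29 against 0.345 (log2 ratio 2.93) and Crabp1 RNA 3.33 against 1.43 (1.17), while Aldh1a2 RNA was lower, 0.296 against 0.857 (-1.27). Thus 3 of 8 members were at least 2-fold apart, against 17.4% of all genes (6.86% higher and 10.5% lower). With 1 added in place of 0.1, 1 member was, Aldh1a1 (1.67), and Crabp1 was at 0.83 and Aldh1a2 at -0.52. Rarg was at 0.38, Rara at 0.13, Stra6 at -0.18 and Rarb at -0.39. Of the barcodes behind this control, 143 also occurred among the spermatogonia labelled Nfya-CKO, and 454 of 925 occurred in some other library.

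In chromatin, on the scale of value + 1, no member was 2-fold apart between spermatogonia labelled Nfya-CKO and Undiff. SpG, against 5.25% of 29475 genes (4.47% higher and 0.777% lower). Enrichment of fragments at transcription start sites, a measure of library quality, averaged 7.99 in spermatogonia labelled Nfya-CKO, 12.7 in Undiff. SpG and 15.1 in Diff. SpG, and its part in these values was not tested. Aldh1a1 signal was 4.10 against 1.89 (log2 ratio 0.82, but 2.17-fold without the added 1, and 1.08 with 0.1 added) and Crabp1 signal 70.4 against 55.4 (0.34), and the other 7 members lay between -0.37 (Stra6) and 0.09 (Rarb). Against Diff. SpG, 3 of 9 members were 2-fold apart, Aldh1a1 (4.10 against 0.931, 1.40) and Crabp1 (70.4 against 34.4, 1.01) higher and Stra6 (1.56 against 4.39, -1.07) lower, where 22.7% of all genes were (17.7% higher and 5% lower) and the median of all genes was 0.11. Rara came near the limit with 51.0 against 26.8 (0.90). With 5 added in place of 1, 0 members were apart from Diff. SpG. Crabp1 was also inside the limit after centring on the median of all genes (0.90) and with mitochondrial genes in the scale (0.74).

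Along control differentiation the same scales were used. Between Diff. SpG and Undiff. SpG no member was 2-fold apart by RNA on the scale of value + 0.1, against 15.8% of all genes (9.57% higher and 6.28% lower in Diff. SpG), the furthest on that scale being Aldh1a2 (0.84), Crabp1 (0.77) and Aldh1a1 (-0.67). Without the added 0.1, Stra6 was furthest, 2.17-fold lower in Diff. SpG (0.0578 against 0.126). Nor was any by scATAC-seq on the scale of value + 1, against 11.2% (3.97% higher and 7.27% lower). Without the added 1, however, Rara (26.8 against 54.2) and Aldh1a1 (0.931 against 1.89) were each 2.03-fold lower in Diff. SpG, and Rara passed the limit with 0.1 added (-1.02) or after centring on the median of all genes (-1.01). Between pL and Undiff. SpG, both mostly juvenile, 1 of 8 members was 2-fold apart by RNA, Cyp26b1 at 0.232 against 0.0604 (log2 ratio 1.05), against 8.61% of all genes (2.42% higher and 6.19% lower in pL). With 1 added in place of 0.1 its log2 ratio was 0.22. Both of these comparisons share the Undiff. SpG values. Crabp1 (0.90), Aldh1a1 (0.70) and Aldh1a2 (0.54) were higher and Rarg (-0.45) and Rara (-0.39) lower in pL by less than 2-fold. By scATAC-seq no member was 2-fold apart, against 4.85% (0.38% higher and 4.47% lower).

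Sertoli cells and other somatic cells, set against each other, differed in 3 of 8 members by RNA, where 21.3% of all genes were 2-fold apart (5.98% higher and 15.4% lower in Sertoli cells) and the median of all genes was -0.22. Stra6 was higher in Sertoli cells (2.91 against 0.266, log2 ratio 3.04), and Cyp26b1 (0.0897 against 1.82, -3.34) and Crabp1 (0.270 against 1.01, -1.58) were lower. Aldh1a2 (0.97), Aldh1a1 (-0.89) and Rarg (-0.87) lay inside the limit, but with 0.01 added 5 members were apart. With 1 added Crabp1 was inside the limit (-0.66), and after centring on the median of all genes Aldh1a2 was past it (1.19). By scATAC-seq only Cyp26a1 was 2-fold apart (38.3 against 18.3, 1.03), where 10% of all genes were (1.98% higher and 8.04% lower). With 5 added in place of 1 its log2 ratio was 0.90, and with 0.1 added 2 members were apart.

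The rest of the pathway was followed with a list of 40 further genes, of which 27 reached the RNA limit. In spermatogonia labelled Nfya-CKO against Undiff. SpG, 4 of the 27 were at least 2-fold higher and 1 was lower, where 4.09% and 3.08% of all genes were. Among the higher genes were Dhrs3 (0.311 against 0.0484, log2 ratio 1.47), Adh1 (1.24) and Aldh1a7 (1.27), which were named after their values were seen. With 1 added in place of 0.1, an alternative chosen after seeing the data, their log2 ratios were 0.32, 0.19 and 0.22, inside the limit. Dhrs3 reduces retinal back to retinol, Adh1 oxidizes retinol, and Aldh1a7 is a close copy of Aldh1a1. The authors kept only uniquely aligned reads, so reads that match both copies equally would be lost from both. Dhrs3, Adh1 and Aldh1a7 were highest in other somatic cells. In spermatogonia labelled Nfya-CKO they stood at 34.5%, 24.3% and 17.1% of that level, in the order given.

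The lower gene on the scale of value + 0.1 was Stra8. Its RNA level was 2.05 in Undiff. SpG, 2.59 in Diff. SpG, 4.86 in pL and 2.67 in eL/L/Z, and 0.969 in spermatogonia labelled Nfya-CKO, a log2 ratio of -1.01 against Undiff. SpG and -1.33 against Diff. SpG. With 1 added in place of 0.1 the log2 ratio against Undiff. SpG was -0.63. Rdh11, a retinol dehydrogenase named after its values were seen, was at -0.88 but 2.95-fold lower without the added 0.1 (0.0758 against 0.224). Stra8 also supplies the control sequence of the Cre in both 8-week groups. Its scATAC-seq signal was 47.8 in Undiff. SpG, 93.6 in Diff. SpG, 99.9 in pL and 54.4 in spermatogonia labelled Nfya-CKO. Kit, the stem cell factor receptor that retinoic acid is known to raise in spermatogonia, stood at 0.548 in Undiff. SpG, 1.56 in Diff. SpG, 2.09 in pL and 1.08 in spermatogonia labelled Nfya-CKO.

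Coregulators of the receptors were followed as well. The coactivator Ncoa1 had an RNA level of 0.510 in Undiff. SpG and 0.740 in spermatogonia labelled Nfya-CKO, against 2.11 in Diff. SpG and 2.39 in pL. The spermatogonia labelled Nfya-CKO were thus within 2-fold of Undiff. SpG for Ncoa1 (log2 ratio 0.46) and more than 2-fold from Diff. SpG (-1.40). Ncor1, Ncoa2 and Trim24 were within 2-fold of both controls, with log2 ratios between -0.15 and 0.61. Over the whole list, 10 of 27 genes were 2-fold apart from Diff. SpG by RNA (5 higher and 5 lower), where 17.4% of all genes were. By scATAC-seq 2 of 40 were 2-fold apart from Undiff. SpG, where 5.25% of all genes were, and 7 of 40 from Diff. SpG, where 22.7% were, so neither chromatin count exceeded the share over all genes.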

How the data were processed

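Per the labels and the paper's methods, the authors aligned reads to mm10 with STAR (2.7.10b) or BWA (0.7.12) removed doublets, and named cells with Seurat (5.2.1) and ArchR (1.0.3). They deposited 1 matrix per assay with 13 pooled population columns on a natural log scale (the natural log of 1 plus the level), and per cell a count of UMIs or fragments, without normalization. In scRNA-seq, 10000 divided by a level was, for 22 to 40 of the 40 lowest levels of a population, a whole multiple of its number of cells (within 0.01), so a level is a mean over cells of UMIs per 10000. In scATAC-seq the mitochondrial share was 31.2% to 64.5%, so nuclear genes were rescaled to 1000000. TSS enrichment, a ratio the authors deposited per cell, was read only to describe populations. Levels were recovered and compared in Python 3.11.15 with pandas 2.3.3, numpy 2.4.6 and scipy 1.17.1, as log2 ratios with pseudocounts of 0.1 (RNA) and 1 (scATAC-seq), over genes with a mean of at least 0.05 or 1, and counted from 2-fold on. With 1 library per condition, nothing was tested for significance. 16 numeric columns of the cell tables were not used, and 49 cells had no library name. Named were all members, other pathway genes with at least 2 UMIs per 10000 in a population or, with a mean of at least 0.2, 2-fold apart between the Nfya-CKO and Undiff. SpG populations (Dhrs3, Adh1, Aldh1a7 and Rdh11 were added after their values were seen), and the 2 genes most like each member with a highest level of at least 0.5. The members and lists were chosen with earlier results of these data known. Coordinates are those of GENCODE on GRCm38. Some genes that the rule names are not reported here.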

Additional observations from a re-analysis of the deposited data

How the results depend on the processing

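No paired analysis was possible because each condition is 1 library and the matrix columns pool libraries; for the same reason no library could be left out, and barcodes shared between libraries could not be removed. The number of members highest in a somatic population (6 of 9) and the number with a positive correlation between readouts (7) were within 1.5-fold of the reported counts under all alternatives run, the latter at 5 over 9 control germ cell populations and 6 with mitochondrial genes in the scale, although single correlations moved more. Counts of members 2-fold apart moved mainly with the pseudocount. With an RNA pseudocount of 1, 1 member was apart between spermatogonia labelled Nfya-CKO and Diff. SpG and 0 between pL and Undiff. SpG, and with 0.01, 5 were apart between Sertoli and other somatic cells. With a scATAC-seq pseudocount of 0.1, 1 member was apart between the Nfya-CKO population and Undiff. SpG, 1 between Diff. and Undiff. SpG and 2 between Sertoli and other somatic cells, and with 5, 0 were apart from Diff. SpG and 0 between the somatic populations. Centring on the median of all genes gave 1 between Diff. and Undiff. SpG by scATAC-seq, 2 in place of 3 between the Nfya-CKO population and Diff. SpG by scATAC-seq, and 4 in place of 3 between the somatic populations by RNA. Aldh1a1 and Crabp1 RNA stayed over 2-fold above Undiff. SpG with a pseudocount of 1, at log2 ratios of 1.42 and 1.27. Of 425 single log2 ratios under alternatives, 411 were within 1.5-fold of the reported value, 14 moved by more and 0 of those past the limit changed sign. Few UMIs lie behind the levels of Cyp26a1 and, in some populations, of Rarb, Cyp26b1 and Stra6, and behind all levels of unknown cells. Few cells lie behind the scATAC-seq signal of ES and unknown cells. No counting error is given for the low signals of Rarb, Cyp26b1, Stra6 and, in germ cells, Aldh1a1.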
